A study of Mus musculus with 16 samples.

Results

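The cytochrome P450 genes are the mouse genes whose symbol begins with Cyp and a number. They were found by symbol among the 45513 genes of the count tables, with 16 pseudogenes left out, and gave 101 members. One of them, Cyp4x1os, is an antisense transcript and no enzyme. Counts came from RNA sequencing of sorted colon epithelium of 8 Atoh1(WT)CreERT2 R26RtdTom mice. In these animals an inducible Cre recombinase follows the wild-type Atoh1 coding sequence, so that tamoxifen turns on the red reporter tdTomato (tdTom) in cells that express Atoh1, the transcription factor of the secretory lineage. The methods describe males and females of C57BL/6 background, 8 to 16 weeks old. All mice carried both alleles and all received 1 mg tamoxifen daily for 3 days, so neither group was without Cre or drug. From each mouse live EpCAM+ tdTom+ cells and live EpCAM+ tdTom- cells were collected (EpCAM is an epithelial surface protein), which gave 8 libraries of each group. The tdTom- group is every sorted epithelial cell without the reporter and not a single cell type. The methods describe sorting from crypt-enriched fractions, with the first fraction left out, so both groups are crypt-enriched. The comparison asks which transcripts set Atoh1-traced cells apart from the other sorted colon epithelial cells.

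Cytochromes P450 are heme enzymes that insert an oxygen atom into lipid-soluble molecules, using electrons that NADPH-cytochrome P450 reductase (Por) passes on in the endoplasmic reticulum and the ferredoxin chain in mitochondria. Members of families named Cyp1, Cyp2 and Cyp3 mostly oxidise drugs, dietary compounds and other foreign molecules, members of Cyp4 and Cyp2j hydroxylate or epoxidise fatty acids and eicosanoids, and others make or break down sterols, bile acids, steroid hormones, vitamin D and retinoids. In the gut these enzymes are best known from absorptive cells, where they meet compounds taken up from the lumen. Many lie in tandem arrays of near copies, and the heme-binding stretch around the conserved cysteine is among their most similar parts.

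The 30 bases that code for this stretch are shown for members on which the results turn, since they show how alike the transcripts are that reads had to be told apart by. Capitals mark the codon of the heme-binding cysteine. Coordinates are GRCm38 and, where the stretch crosses an exon junction, include the intron.
Cyp2c55: ttctcaataggaaagcgaatgTGCgtggga
Cyp2c65: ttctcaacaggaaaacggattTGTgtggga
Cyp2c68: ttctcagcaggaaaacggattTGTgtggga
Cyp2d10: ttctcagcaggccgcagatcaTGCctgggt
Cyp2d11: ttctcagcaggacacagatcaTGCctgggg
Cyp3a11: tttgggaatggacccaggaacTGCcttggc
Cyp3a13: tttgggagtggaccaaggaacTGCattggc
Cyp3a25: tttggaaatggacccaggaacTGCataggc
Cyp3a44: tttggaattggacccaggaacTGCattggc
Cyp4b1: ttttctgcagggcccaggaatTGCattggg
Cyp2r1: ttttctctagggagaagacatTGTcttgga

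For Cyp2c55 it spans exons 8 and 9 of 9 on the plus strand (chr19:39038232-39042036). For Cyp2c68 it lies on the minus strand (chr19:39689234-39699270), and the Cyp3a stretches lie within exon 12 of 13, as for Cyp3a13 (chr5:137895267-137895296). The Cyp2c65 stretch is the same as that of Cyp2c66 and differs from Cyp2c55 at 5 of 30 bases. The Cyp2c68 stretch is shared without a difference by Cyp2c40, Cyp2c67 and Cyp2c69. Cyp2d10 and Cyp2d11 differ at 3 bases, and Cyp3a11 differs from Cyp3a13 at 3. The amino acid pattern searched for was found in 91 of the 101 members, and in 31 of these the 30 bases were identical to those of another member. Members in which it was not matched include Cyp51, Cyp20a1, Cyp3a59, Cyp2s1 and Cyp39a1.

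Library totals ran from 16482530 to 24218367 counts in tdTom+ cells and from 18318172 to 45791503 in tdTom- cells, with the highest total in the tdTom- library of mouse 4 and the next highest at 20668605. Atoh1 itself read 102, 127 and 166 CPM (counts per 1000000 counts of the scaled library; lowest, median and highest of 8) in tdTom+ cells and 3.18, 5.38 and 8.89 CPM in tdTom- cells, in the direction of the labels. All 8 goblet cell markers were higher in tdTom+ cells and all 10 absorptive cell markers were lower. Summed goblet markers ran from 49189 to 103033 CPM in tdTom+ cells and from 2229 to 8663 CPM in tdTom- cells. Summed absorptive markers ran from 903 to 1007 CPM in tdTom+ cells and from 4650 to 8000 CPM in tdTom- cells. Of 10 enteroendocrine markers 9 were lower in tdTom+ cells (summed 327 to 837 against 1453 to 4219 CPM), and of the 9 tuft markers tested 7 were lower. Immune markers summed to 5.94 to 12.4 CPM in tdTom+ cells and 10.5 to 36.6 CPM in tdTom- cells, and fibroblast and endothelial markers to at most 3.36 CPM in any library. Of 5 stem cell markers tested 4 were lower and 1 was higher, the 2 Paneth cell markers tested were higher (the list summed to 6.28 to 40.9 CPM in tdTom+ cells and 0.875 to 3.04 CPM in tdTom- cells), and of 6 proliferation markers 2 were lower (5 with mouse as a block). These markers of cell identity moved with the groups in every P450 result given here, and their part in those results was not tested. In such pooled cells, fewer cells of a type and less RNA per cell cannot be told apart.

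P450 transcripts were fewer in tdTom+ cells. Of the 101 members, 18 had no count in any library, 40 had too few for the test and 43 were tested. In tdTom+ cells 31 of these 43 were lower and 3 were higher (edgeR quasi-likelihood test, adjusted p below 0.01 over all 15841 genes tested). Of all genes tested, 25.5% were lower and 25.5% were higher by the same rule. The median log2 fold change (tdTom+ over tdTom-) was -1.48 over the 43 members and 0.00391 over all genes, and 27 members were lower by at least 1 on the log2 scale, a size of decrease reached by 9.16% of all genes. In 27 of the tested members every tdTom+ library lay below every tdTom- library (15.3% of all genes), and in 3 every tdTom+ library lay above (15.2%). A gene that passes the filter on low counts through 1 group alone has to differ, so the 36 members past that level (0.517 CPM) in all 16 libraries were also counted alone. Among these 36, 25 were lower, 3 were higher and 8 were not called. The same count over all genes past that level in all 16 libraries was not made. The 25.5% each way covers all genes tested and is no matching background for these 36. The median and the counts by size and by overlap still hold members outside the 36, among them Cyp3a11, Cyp3a25, Cyp3a44 and Cyp3a59. They were not taken again over the 36 alone.

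**Figure D1:**
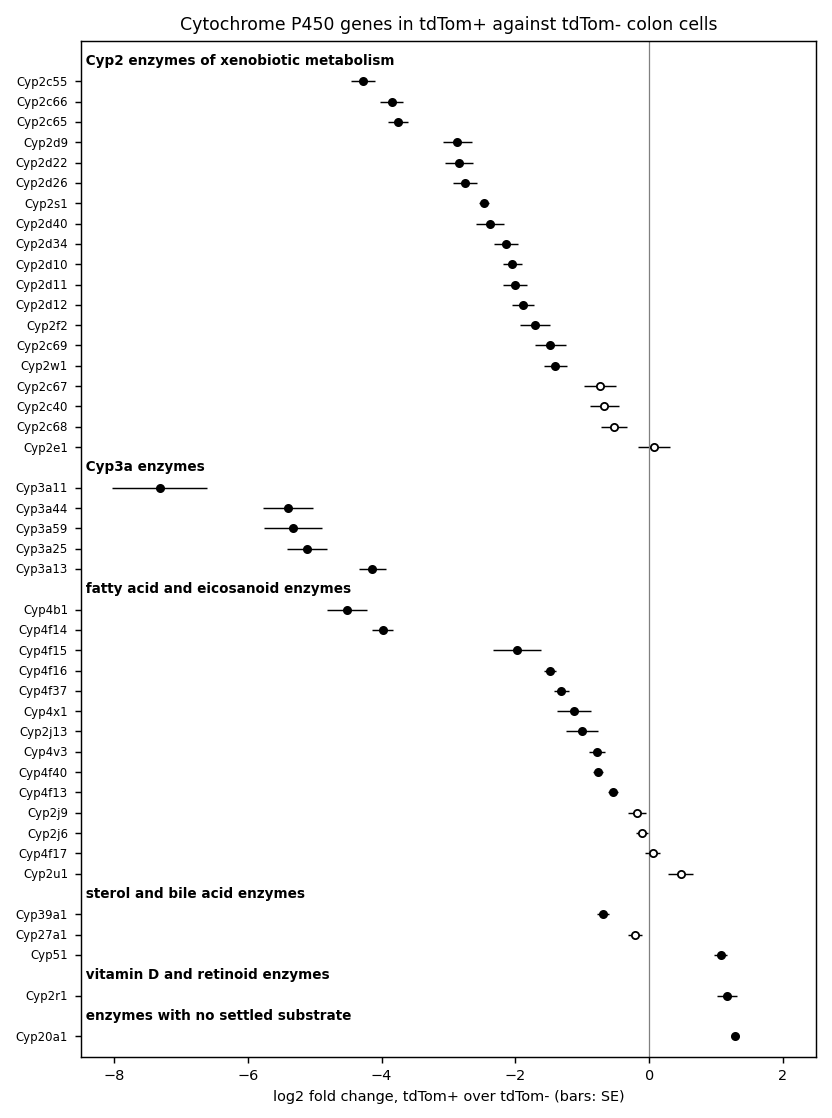
Log2 fold change of the 43 tested members in tdTom+ against tdTom- cells, grouped by role. Points are estimates from 8 libraries per group, bars are SE and filled points have an adjusted p below 0.01. Most points lie left of 0, 4 of the 5 Cyp3a genes farthest, and 3 filled points lie right of 0 (Cyp51, Cyp2r1 and Cyp20a1). The Cyp3a11 point rests on 0 counts in tdTom+ cells, so its position depends on the fit.

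The sum over all members was 721, 861 and 893 CPM (lowest, median and highest library) in tdTom+ cells and 2978, 4181 and 6154 CPM in tdTom- cells. It was lower in tdTom+ cells in 8 of 8 mice. Cyp2c55 alone gave 57.4% to 66.4% of the family's counts in tdTom- cells and 13.2% to 20.4% in tdTom+ cells. Without Cyp2c55 the sum ran from 606 to 760 CPM in tdTom+ cells and from 1229 to 2070 CPM in tdTom- cells, and the groups still did not overlap. Per kilobase of transcript, the highest members in tdTom- cells were Cyp2c55 (1355 CPM per kb), Cyp2d34 (107), Cyp2c65 (100), Cyp4f14 (57.4) and Cyp3a13 (44.2). In tdTom+ cells they were Cyp2c55 (69.7 CPM per kb), Cyp51 (54.7), Cyp2d34 (24.4), Cyp2j6 (19.5) and Cyp20a1 (18.4). The share of the family's counts from Cyp51 was 1.72% to 3.50% in tdTom- cells and 22.8% to 34.4% in tdTom+ cells.

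Among the Cyp2 genes grouped by symbol as enzymes of xenobiotic metabolism, 15 of the 19 tested were lower and 4 were not called. Of all genes tested, 25.5% were lower. The group name follows from the symbols and does not give the substrate of each member. The 15 fell by 1.41 to 4.28 on the log2 scale. Cyp2c55, an intestinal enzyme that hydroxylates arachidonic acid, read 97.7, 138 and 178 CPM in tdTom+ cells and 1749, 2545 and 4084 CPM in tdTom- cells. Its lowest tdTom- library was above its highest tdTom+ library by a wide margin, and its log2 fold change was -4.28 (SE 0.18, adjusted p = 2.4e-14). Cyp2c65 read 9.33, 13.9 and 18.2 CPM against 144, 194 and 272 CPM, a log2 fold change of -3.76 (SE 0.15). Cyp2c66 read 1.20, 1.67 and 2.38 CPM against 19.2, 23.6 and 40.2 CPM, a log2 fold change of -3.85 (SE 0.17). In each of these 3 neighbours the groups did not overlap. Cyp2c65 and Cyp2c66 share about 20.6% and 19.5% of their 50-base stretches with other genes, mostly each other, while Cyp2c55 shares 0.514%.

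The rest of the Cyp2c array on chromosome 19 held genes with few or no counts and a set of 4 near copies. Next along the chromosome, Cyp2c29, Cyp2c38 and Cyp2c39 had 4, 0 and 1 counts over all 16 libraries. Beyond them lie Cyp2c67, Cyp2c68, Cyp2c40 and Cyp2c69, which share 43.3% to 60.3% of their 50-base stretches with other genes. Cyp2c69 read 1.57, 2.72 and 4.08 CPM in tdTom+ cells and 3.10, 8.07 and 12.3 CPM in tdTom- cells, a log2 fold change of -1.48 (SE 0.23, adjusted p = 1.3e-05 by edgeR), with overlapping groups. Cyp2c68 read 15.6, 23.9 and 35.1 CPM against 21.4, 35.9 and 58.8 CPM, and its log2 fold change of -0.53 (SE 0.20) missed the threshold (adjusted p = 0.0265 by edgeR). Cyp2c40 (log2 fold change -0.67, adjusted p = 0.0123) and Cyp2c67 (log2 fold change -0.74, adjusted p = 0.0104) missed it too, and they are named because the mouse term changed their call. Without mouse 1 both passed (adjusted p = 0.0082 for Cyp2c40 and 0.0078 for Cyp2c67), and without mouse 4 Cyp2c67 passed (adjusted p = 0.0068 by edgeR).

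These 4 genes varied by mouse in both populations. Their summed level in tdTom- cells was lowest in mice 1 and 4 (31.9 and 34.8 CPM) and highest in mouse 5 (93.0 CPM). In tdTom+ cells mice 4 and 1 were again lowest (22.1 and 26.4 CPM), mouse 3 was highest (50.5 CPM) and mouse 5 followed (46.6 CPM). Within each mouse the tdTom+ value was the lower one for each of the 4 genes. With mouse as a block in the edgeR model, all 4 were lower in tdTom+ cells (adjusted p = 1.2e-05 for Cyp2c68, 2.4e-06 for Cyp2c40 and 2.7e-05 for Cyp2c67), and the count of lower members was 34 (28.9% of all genes tested were lower and 28.4% higher in that model). Since the 4 transcripts share so many reads, which of them carried a change is uncertain.

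**Figure D2:**
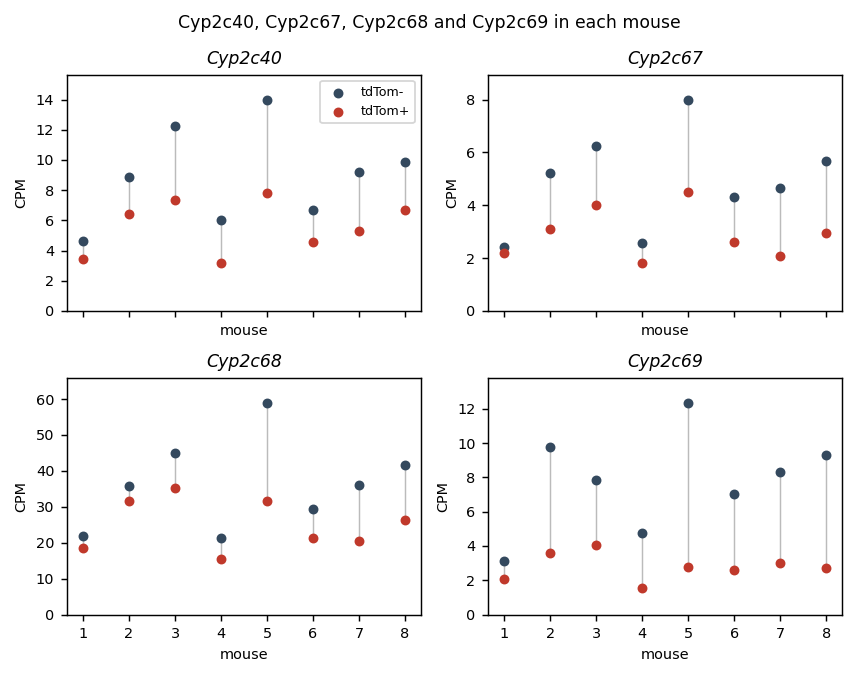
CPM of Cyp2c40, Cyp2c67, Cyp2c68 and Cyp2c69 in each of 8 mice, in tdTom- cells (dark) and tdTom+ cells (red). Lines join the 2 libraries of a mouse. In every mouse and gene the red point is below the dark one, and mice 1 and 4 are low in both populations.

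All 8 Cyp2d genes, the mouse relatives of the human drug enzyme CYP2D6, were tested and all 8 were lower, beside 25.5% of all genes tested. As relatives that share reads, they are not 8 separate results. Their sum was 57.9, 88.6 and 106 CPM in tdTom+ cells and 242, 412 and 537 CPM in tdTom- cells. Log2 fold changes ran from -2.87 for Cyp2d9 (SE 0.22) to -1.88 for Cyp2d12 (SE 0.17), and in none of the 8 did the groups overlap. Over all genes tested, 15.3% had every tdTom+ library below every tdTom- library. Cyp2d34, the highest of them per kilobase, read 26.5, 40.6 and 54.1 CPM in tdTom+ cells and 102, 175 and 263 CPM in tdTom- cells, a log2 fold change of -2.14 (SE 0.18). Cyp2d22 (-2.84, SE 0.21) and Cyp2d26 (-2.75, SE 0.17) share under 10% of their 50-base stretches with other genes. Cyp2d9, Cyp2d40 (-2.38), Cyp2d10 (-2.05) and Cyp2d11 (-2.01) share 21.8%, 14.5%, 35.8% and 37.2%, so that their single values are less certain than the sum.

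Cyp2s1, Cyp2f2 and Cyp2w1 lie outside these arrays, and their transcripts have no 50-base stretch in common with other genes. Cyp2s1, an enzyme of epithelia outside the liver, read 24.3, 29.0 and 32.3 CPM in tdTom+ cells and 132, 157 and 176 CPM in tdTom- cells. Its log2 fold change of -2.47 had an SE of 0.07 (adjusted p = 4.9e-16 by edgeR). Cyp2f2, known from airway club cells, read 1.24, 2.68 and 4 CPM against 4.92, 9.06 and 12.4 CPM, a log2 fold change of -1.71 (SE 0.23). Cyp2w1, an enzyme known from colon tumours, read 1.79, 2.20 and 3.53 CPM against 4.16, 6.29 and 8.43 CPM, a log2 fold change of -1.41 (SE 0.17). For Cyp2f2 and Cyp2w1 levels were low but the groups did not overlap.

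Each of the 5 tested Cyp3a genes was lower, beside 25.5% of all genes tested. In 4 of them (Cyp3a11, Cyp3a25, Cyp3a44 and Cyp3a59) no tdTom+ library reached the filter level of 0.517 CPM, so they entered the test through tdTom- cells alone and had to differ. Cyp3a13 is the only Cyp3a gene past that level in all 16 libraries. Cyp3a enzymes oxidise steroids, bile acids and many drugs. Cyp3a13, which lies apart from the array of the other 8, held most of the Cyp3a counts. It read 5.63, 6.91 and 9.86 CPM in tdTom+ cells and 68.9, 118 and 220 CPM in tdTom- cells, a log2 fold change of -4.14 (SE 0.21, adjusted p = 5.4e-13 by edgeR). The other 8 together read 0.0647, 0.255 and 0.613 CPM in tdTom+ cells and 8.10, 12.3 and 18.0 CPM in tdTom- cells. This sum was lower in tdTom+ cells in 8 of 8 mice.

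Cyp3a11, the liver enzyme most often used as a readout of pregnane X receptor activity, had 0 counts in all 8 tdTom+ libraries and 10 to 35 counts in the tdTom- libraries. Against a floor of 3 counts over the 8 tdTom+ libraries it was at least 48.7-fold lower. Cyp3a41a (0 counts against 38) was at least 10.7-fold lower on the same floor and Cyp3a57 (0 against 24) at least 7.42-fold lower. Both were too low for the test and were named because of their 0 counts, so these bounds only describe counts. Cyp3a41b, the near copy of Cyp3a41a, had 1 count in the tdTom+ library of mouse 4. Cyp3a44 had 15 counts over all tdTom+ libraries and 765 over all tdTom- libraries, a log2 fold change of -5.40 (SE 0.37). Cyp3a25 had 24 and 1007, a log2 fold change of -5.12 (SE 0.29). Cyp3a59 had 3 and 180, a level in tdTom- cells 49.0-fold that in tdTom+ cells (95% counting interval 16.5 to 240, exact). This interval covers counting error in the pooled libraries and not the spread between mice, so it is too narrow for that spread. Of the tdTom+ counts, mouse 5 held 10 of the 24 for Cyp3a25 and 2 of the 3 for Cyp3a59. Without mouse 5 the fitted log2 fold changes were -5.73 for Cyp3a25 and -6.26 for Cyp3a59, which was -5.32 (SE 0.43) with it. Cyp3a41a and Cyp3a41b share over 93% of their stretches and Cyp3a25 and Cyp3a59 over 25%, so counts of single genes of this array are uncertain.

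**Figure D3:**
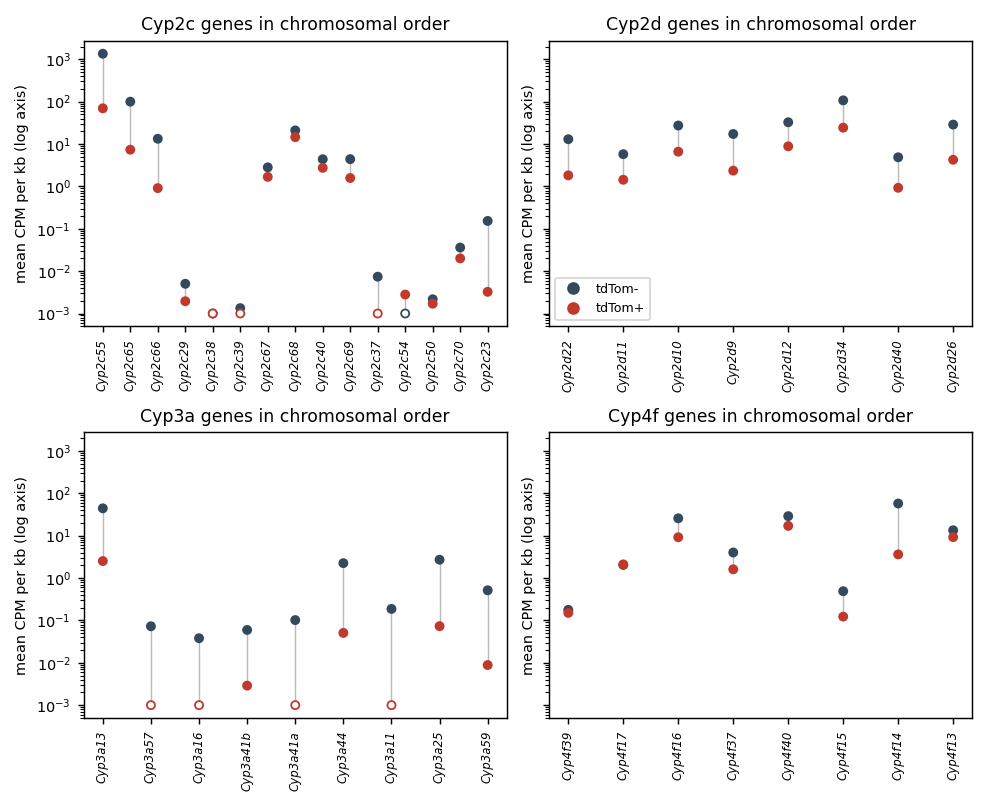
Mean level per kilobase (CPM per kb, log axis) of the Cyp2c, Cyp2d, Cyp3a and Cyp4f genes in their order along the chromosome, in tdTom- (dark) and tdTom+ (red) cells, 8 libraries each. Open points mark genes with no count in a group, drawn at the bottom. The first 3 Cyp2c genes differ widely between the groups, the 4 genes from Cyp2c67 to Cyp2c69 lie close together, and each of the 8 Cyp2d genes is lower in tdTom+ cells.

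Among fatty acid and eicosanoid enzymes, 10 of 14 tested were lower, beside 25.5% of all genes tested, and 4 were not called. The 10 include Cyp4f15 and Cyp2j13, which entered the test mainly through tdTom- cells. The median log2 fold change of this group was -0.90. Its log2 fold changes ran from -4.52 to 0.47. Cyp4b1, a fatty acid hydroxylase that also activates some plant toxins, read 1.05, 1.86 and 3.58 CPM in tdTom+ cells and 23.3, 38.8 and 94.6 CPM in tdTom- cells. Its log2 fold change was -4.52 (SE 0.30, adjusted p = 4.5e-11 by edgeR), and mouse 2 had the highest value in both populations. Cyp4f14, which hydroxylates leukotriene B4, read 7.25, 8.38 and 12.0 CPM against 83.1, 134 and 197 CPM, a log2 fold change of -3.99 (SE 0.15, adjusted p = 7.8e-15 by edgeR). In both genes every tdTom+ library lay below every tdTom- library.

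Other Cyp4f genes of the chromosome 17 array had smaller log2 fold changes, and their difference from Cyp4f14 was not tested. Cyp4f16 read 25.2, 27.8 and 29.8 CPM in tdTom+ cells and 56.7, 77.8 and 96.5 CPM in tdTom- cells, a log2 fold change of -1.48 (SE 0.09). Cyp4f37, which shares 19.7% of its 50-base stretches with other genes and most of those with Cyp4f16, had a log2 fold change of -1.31 (SE 0.11). Cyp4f40 read 26.1, 31.3 and 36.0 CPM against 47.5, 53.0 and 65.1 CPM, a log2 fold change of -0.76 (SE 0.07). These 3 did not overlap between groups. Cyp4f15 was near the limit of detection at 0 to 0.582 CPM in tdTom+ cells and 0.508 to 1.68 CPM in tdTom- cells, a log2 fold change of -1.97 (SE 0.36) with overlapping groups. Most of its tdTom+ values lay below the filter level of 0.517 CPM, so it too entered the test mainly through tdTom- cells. The array thus ran from a decrease of 3.99 on the log2 scale for Cyp4f14 to Cyp4f17, named here after its value was seen, which was not called at 0.05 (SE 0.11), and Cyp4f39 was not tested.

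Cyp4x1, a brain and epithelial enzyme, fell from a median of 3.05 to 1.43 CPM, a log2 fold change of -1.12 (SE 0.25) with overlapping groups. Cyp2j13 had a median of 0.737 CPM in tdTom- cells and 0.341 CPM in tdTom+ cells and was lower in 7 of 8 mice, a log2 fold change of -1.01 (SE 0.24, adjusted p = 0.0011 by edgeR). Most of its tdTom+ values lay below the filter level of 0.517 CPM. It thus entered the test mainly through tdTom- cells, which favours a call of lower. Cyp2j6 stood out as an abundant member without a call. It read 63.6, 68.4 and 84.5 CPM in tdTom+ cells and 61.7, 74.7 and 103 CPM in tdTom- cells. Its log2 fold change was -0.11 (SE 0.09, adjusted p = 0.30 by edgeR) and it was lower in 4 of 8 mice.

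**Figure D4:**
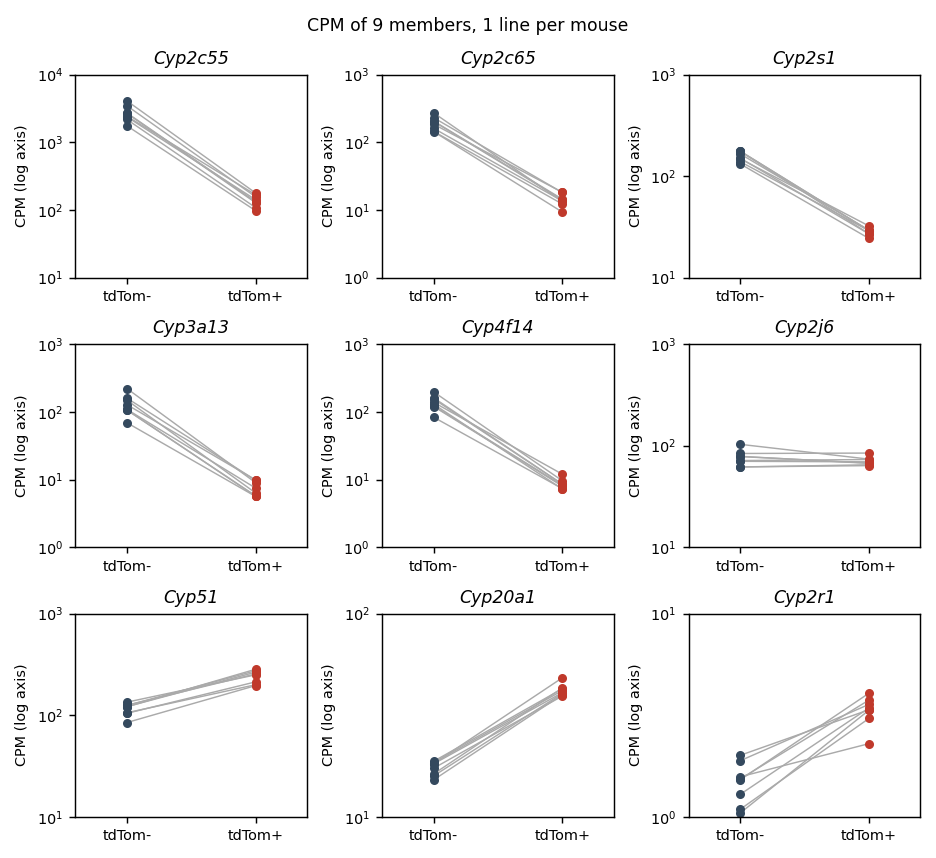
CPM (log axis) of 9 members in tdTom- (dark) and tdTom+ (red) cells, with a line for each of 8 mice. The lines of Cyp2c55, Cyp2c65, Cyp2s1, Cyp3a13 and Cyp4f14 all fall, those of Cyp2j6 are nearly flat and those of Cyp51, Cyp20a1 and Cyp2r1 all rise.

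The 3 members that were higher in tdTom+ cells belong to other roles, and each was higher in 8 of 8 mice without overlap. Cyp51, the lanosterol demethylase of cholesterol synthesis, read 195, 252 and 283 CPM in tdTom+ cells and 84.7, 121 and 134 CPM in tdTom- cells. Its log2 fold change was 1.07 (SE 0.10, adjusted p = 5.2e-09 by edgeR). Cyp20a1, a member with no settled substrate, read 39.3, 41.3 and 48.3 CPM against 15.2, 17.8 and 18.8 CPM, a log2 fold change of 1.28 (SE 0.06). Cyp2r1, which hydroxylates vitamin D to its circulating form, read 2.29, 3.40 and 4.06 CPM against 1.04, 1.53 and 2.01 CPM, a log2 fold change of 1.16 (SE 0.15). Of all genes tested, 7.59% were higher by 1 or more on the log2 scale. Of the other sterol enzymes tested, the oxysterol hydroxylase Cyp39a1 was lower (log2 fold change -0.69, SE 0.09) and the sterol hydroxylase Cyp27a1 was not called (-0.21, SE 0.11).

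Cyp51 is a known target of the sterol-responsive factor SREBP, so its upstream sequence is shown. The 250 bases before its RefSeq start (GRCm38.p6, minus strand, chr5:4104698-4104947) read as follows, with a match to the letters TCACCNCA in capitals.
Cyp51: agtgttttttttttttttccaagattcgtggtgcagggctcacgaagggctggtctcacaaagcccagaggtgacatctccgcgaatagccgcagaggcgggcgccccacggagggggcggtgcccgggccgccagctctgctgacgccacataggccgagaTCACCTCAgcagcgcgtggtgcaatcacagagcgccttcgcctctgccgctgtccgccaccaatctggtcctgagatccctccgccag

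The letters were searched on both strands of 32851 RefSeq promoters, of which 3.61% held them, and this form of the sterol element was chosen after the Cyp51 window had been seen. Counted by gene, 1130 of 27025 genes held it in at least 1 promoter. Of the 78 members with such a window 2 held it, Cyp51 and Cyp26c1. The longer form TCACNCCAC was in 1.05% of promoters (331 of 27025 genes) and in 0 members. GCGTG, the core bound by the aryl hydrocarbon receptor, was in 28.2% of promoters (8338 of 27025 genes) and in 16 of the 78 members. These matches describe letters only.

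The steroid hormone enzymes, the Cyp1 enzymes and most vitamin D and retinoid enzymes were barely detected. None of the 6 steroid hormone enzymes and none of the 3 Cyp1 enzymes reached the test. Cyp1a1, the classic target of the aryl hydrocarbon receptor, had 3 counts over all 16 libraries, and Cyp1a2 and Cyp1b1 had 0. The bile acid enzyme Cyp7a1, the aromatase Cyp19a1 and the retinoid hydroxylase Cyp26c1 had 0 as well. A count of 0 in 1 library allows a level of up to 0.0655 to 0.182 per 1000000 counts of the unscaled library (3 counts, counting error only). Of the 40 members with counts but no test, 33 had under 30 counts in all.

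Of 10 electron donors tested, 3 were lower, 3 were higher and 4 were not called, shares near the 25.5% of all genes in each direction. Por, the reductase that serves the P450 enzymes of the endoplasmic reticulum, read 68.0, 80.4 and 102 CPM in tdTom+ cells and 158, 181 and 238 CPM in tdTom- cells, a log2 fold change of -1.20 (SE 0.09, adjusted p = 3.7e-10 by edgeR). It had the largest decrease of the list, and Cyb5r3, a cytochrome b5 reductase, had the largest increase (log2 fold change 0.42, SE 0.05). Cyb5r3 read 159, 175 and 204 CPM against 127, 129 and 138 CPM.

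Of 11 genes of heme synthesis and breakdown 3 were lower, 4 were higher and 4 were not called, again beside 25.5% of all genes each way. Alas1, the rate-limiting enzyme of heme synthesis, read 63.3, 79.0 and 87.0 CPM in tdTom+ cells and 165, 194 and 243 CPM in tdTom- cells, a log2 fold change of -1.33 (SE 0.08, adjusted p = 9.7e-12 by edgeR). The largest increase was in Cpox, a later enzyme of the same pathway, with 48.1, 58.2 and 63.2 CPM against 24.5, 32.7 and 34.9 CPM and a log2 fold change of 0.86 (SE 0.07). Named after their values were seen, the other lower genes were Alad and Blvrb, and the other higher genes were Uros, Urod and Fech.

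Of 25 listed regulators 22 were tested, 15 were lower and 3 were higher, beside 25.5% of all genes in each direction. Nr1i3, the constitutive androstane receptor, had the largest decrease, with 0.0792, 0.124 and 0.256 CPM in tdTom+ cells and 1.37, 2.11 and 4.53 CPM in tdTom- cells (log2 fold change -4.13, SE 0.32). Nr1i2, the pregnane X receptor that drives Cyp3a genes in liver, read 31.8, 36.0 and 37.8 CPM against 74.6, 90.4 and 95.4 CPM, a log2 fold change of -1.30 (SE 0.06, adjusted p = 6.7e-14 by edgeR). Ahr, the aryl hydrocarbon receptor, fell by 0.27 on the log2 scale (SE 0.08, adjusted p = 0.0047 by edgeR) and was lower in 7 of 8 mice. The largest increase was in Srebf2, which encodes an SREBP, at 326, 355 and 396 CPM against 252, 289 and 312 CPM (log2 fold change 0.28, SE 0.06). Neither of the P450-fold enzymes without a Cyp symbol, Tbxas1 and Ptgis, reached the test.

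**Figure D5:**
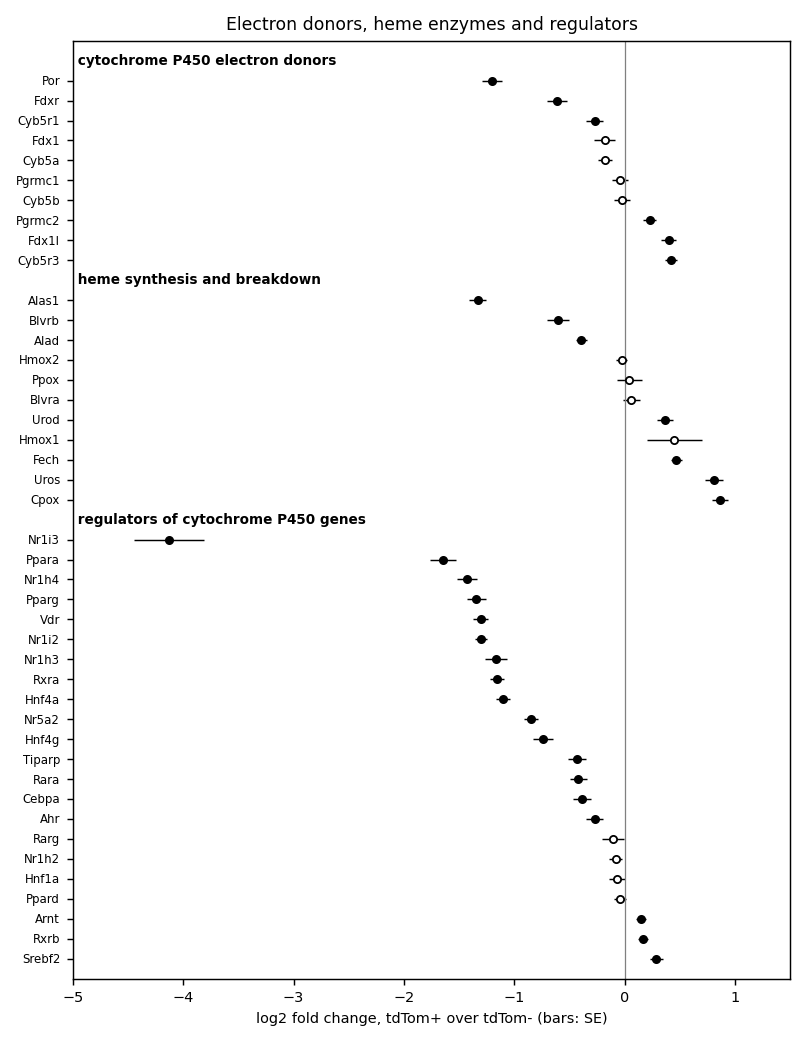
Log2 fold change (tdTom+ over tdTom-) of the tested electron donors, heme enzymes and regulators, 8 libraries per group. Bars are SE and filled points have an adjusted p below 0.01. Por, Alas1 and most nuclear receptors lie left of 0, and Cpox and Cyb5r3 lie right of it.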

How the data were processed

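The authors aligned 50-base single-end reads of stranded libraries to GRCm38 with TopHat2 (version 2.1.1 in the processing notes) and deposited raw counts per gene from featureCounts (1.5.0-p1 in the file headers, reverse strand, primary alignments). This option also counts the primary alignment of a read that fits several places, so reads shared by near copies were placed at 1 of them by the aligner. Gene symbols came from the GENCODE annotation of GRCm38 (44585 of 45513 identifiers matched). No count column was without a sample.

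Groups came from the labels and mice from the titles. Counts were scaled by TMM, filtered by filterByExpr and tested in edgeR 4.0.16 (R 4.3.3) with the quasi-likelihood test over 15841 genes, without a mouse term, at a Benjamini-Hochberg adjusted p below 0.01. SE was taken from the F statistic. CPM use TMM-scaled library sizes. The 2 libraries of a mouse came from the same animal, and their deviations from the group means correlated at 0.223 to 0.408, against at most 0.168 between mice. No 2 libraries of a group agreed within sampling noise. The script was tested on simulated data. Alternatives were mouse as a block, RLE and upper-quartile scaling, no filter, DESeq2 1.42.0, a threshold of 0.05, each mouse left out, and mice 1 to 3 or 5 to 8 alone, whose numbers run in separate series.

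Members and lists were chosen with earlier results of these data known. Named are members past the threshold with a log2 fold change of at least 1 in size, the 12 highest tested members by mean CPM per kilobase, members with 0 counts in 1 group and at least 20 in the other, Por, Alas1, Ahr, Nr1i2 and the largest change each way per list. Fdx2 is not a symbol in the files. Shared 50-base stretches were counted over GENCODE transcripts. A gene each of the heme and immune lists is not reported here.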

Additional observations from a re-analysis of the deposited data

Results flagged for a closer look

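In 68 sets of 8 libraries (each named and tested member in each group, and the library totals) 4 held a library farther from the rest than Dixon's limit, and chance alone flags about 3.4 of 68. The tdTom- library of mouse 4 held 45791503 counts, while the other tdTom- libraries held 18318172 to 20668605. The same library was low for Cyp2d10 at 4.62 log2 CPM (others 5.30 to 5.81) and for Cyp2d11 at 2.39 log2 CPM (others 3.01 to 3.47). Without mouse 4 the log2 fold changes were -2.10 for Cyp2d10 and -2.03 for Cyp2d11, and 32 members were lower in tdTom+ cells. The tdTom+ library of mouse 3 was high for Cyp20a1 at 5.60 log2 CPM (others 5.30 to 5.43).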

How the results depend on the processing

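Of the 43 tested members, 36 had the same call and direction under all 16 alternatives, and no call changed sign. With mouse as a block, 34 members were lower (all 31 of the main model and Cyp2c40, Cyp2c67 and Cyp2c68), 3 were higher, no other member's call changed, and 4 instead of 3 electron donors were lower. DESeq2 gave 33 lower and 3 higher members. RLE and upper-quartile scaling each gave 31 and 3, and leaving out each mouse in turn gave 31 to 33 lower and 3 higher. Without the filter 83 members were tested and 37 were lower, while the 18 members with no count could not be tested. The 6 added were Cyp26b1, Cyp2c23, Cyp3a41a, Cyp3a41b, Cyp3a57 and Cyp4f18. All of these but Cyp26b1 had at most 1 count in any tdTom+ library, so a call could only be lower. At a threshold of 0.05, 34 were lower and 4 were higher. With mice 1 to 3 alone 28 members were lower, Cyp2c69 (adjusted p = 0.036 by edgeR), Cyp2j13 (0.065) and Cyp4f15 (0.028) no longer passing, and over all genes 2559 were lower and 2546 higher in place of 4042 and 4032. That alternative has 6 libraries. With mice 5 to 8 alone 33 members were lower. Values over all genes are given only for the main model, the block and mice 1 to 3. The other member counts of this paragraph have no background beside them.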

Other observations

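Some members below the test's filter had enough counts to describe, and they are given here as values chosen after they were seen. Cyp27b1, which makes the active form of vitamin D, had 115 counts over the tdTom+ libraries (2 to 32 in each) and 71 over the tdTom- libraries (4 to 15), with the higher value in tdTom+ cells in 6 of 8 mice. Cyp11a1, the side-chain cleavage enzyme of steroid synthesis, had 26 counts in tdTom+ cells, 11 of them in mouse 5, and 73 in tdTom- cells. Cyp26b1, a retinoic acid hydroxylase, had 13 and 63 counts, 22 of the latter in mouse 1. Cyp2c23, an epoxygenase, had 1 count in tdTom+ cells and 54 in tdTom- cells and was lower in 8 of 8 mice. Cyp4x1os, the antisense transcript, had 15 counts in tdTom+ cells and 43 in tdTom- cells. The filter kept these 5 out of the test, and without it Cyp26b1 and Cyp2c23 were called lower in tdTom+ cells.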
